A study of Mus musculus with 6 samples.

Results

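The genes described here encode Slpi, 5 serpins and 2 cystatins, all inhibitors of proteases, in mouse leukemia cells that either received CCL5 or served as controls. The list of 8 symbols (Slpi, Serpinb1a, Serpinb2, Serpinb6a, Serpinb9, Serpina3g, Cst3 and Cstb) was drawn up with earlier results of these libraries known, and all 8 were found among the 23337 genes of the count table. Polyadenylated RNA was sequenced from 3 libraries labelled ccl5 and 3 labelled control, all described as primary neonatal murine leukemia, in a study of MLL-rearranged leukemia. The ccl5 group held replicate 1, labelled a tertiary transplant, and replicates 2 and 3, labelled primary transplants. The control group held replicates 1 and 2, for which the labels give no transplant, and replicate 3, labelled a primary transplant. No dose or duration of CCL5, mouse strain, age at harvest or fusion construct is given in the labels, and they do not say whether libraries came from separate animals or cultures. The p-values behind any call therefore measure only the spread between these libraries.

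Proteases of myeloid granules and lysosomes are held in check by inhibitors that differ in fold and location. Slpi is a small secreted protein with whey acidic protein domains that blocks neutrophil elastase and cathepsin G. Serpins trap a serine or cysteine protease by a conformational change after it cuts their exposed loop, and those of clade B mostly stay inside the cell and guard it against its own enzymes. Cystatins are tight, reversible inhibitors of lysosomal cysteine cathepsins, with cystatin C (Cst3) secreted and stefin B (Cstb) found in the cytosol.

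The libraries did not fall together by treatment. Total gene counts ranged from 13421100 to 18445095 per library. Read counts were compared between libraries with a chi-square value per gene, which averages 1 when libraries differ by sampling alone. The value averaged 9.05 between ccl5 replicates 1 and 3, 4.81 between ccl5 replicate 2 and control replicate 3, and 3.74 between control replicates 1 and 2. It lay between 241 and 620 for the other 12 pairs of libraries. ccl5 replicates 2 and 3 carry the same source name in the labels, yet each was closest to a library of another source. All values exceeded sampling noise and no library was counted as a repeat of another, but this does not show that the close libraries are independent samples. Reads of the 4 Y-linked genes Ddx3y, Eif2s3y, Kdm5d and Uty were at 0 in ccl5 replicates 1 and 3 and numbered 5103 to 7777 in the other 4 libraries, while Xist had 29408 and 25725 counts in ccl5 replicates 1 and 3 and at most 77 elsewhere. Effects of CCL5 thus cannot be told apart from other differences between the sources of these libraries. Whether a library carries a wrong or exchanged label was not tested; groups follow the labels as given, and every difference between ccl5 and control below depends on them. Of 16 monocyte and macrophage markers all were detected, with summed levels of 5214 to 21826 CPM (counts per 1000000 of effective library size) in ccl5 libraries and 5660 to 14397 CPM in control libraries. Lyz2 made up most of each of these sums. The 5 primary granule markers summed to between 237 and 7878 CPM in ccl5 libraries and between 2349 and 7762 CPM in control libraries. Of 7 B-cell markers, 4 had at most 3 counts in every library. Cd79b had 139 to 299 counts (10.5 to 15.9 CPM) across the 6 libraries and made up most of the summed level of this list in each. Cd79a had 2 to 17 counts, and Vpreb1 had at most 6. Of 8 T and NK cell markers, Nkg7 reached 60.5 CPM in ccl5 replicate 2 and 66.7 CPM in control replicate 3, and the other 7 had at most 8 counts in any library. Summed levels in ccl5 and then in control libraries were, for mast cell and basophil markers, 2.002 to 9.65 CPM and 5.39 to 14.7 CPM, and for stroma and endothelium markers, 29.0 to 88.0 CPM and 84.2 to 96.4 CPM. Most of the stroma and endothelium sums was Pecam1, at 26.3 to 84.8 CPM in ccl5 libraries and 82.0 to 94.1 CPM in control libraries. The highest level of any other gene on that list was 2.42 CPM, for Pdgfrb in ccl5 replicate 1. Erythroid and platelet markers summed to 10.5 to 33.8 CPM in ccl5 libraries and 4.38 to 14.1 CPM in control libraries, mostly from the platelet genes Pf4, Itga2b and Ppbp. The 4 haemoglobin genes on the list were listed at 0 in every library and overlap in pairs, so their zeros do not show that erythroid RNA was absent.

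In the comparison of ccl5 with control libraries, where treatment cannot be told apart from source, none of these inhibitors separated the groups. Slpi ranged widest, being lower in the ccl5 group on average, and Cst3 and Cstb averaged higher with CCL5, but each difference came from some of the libraries. The filter on low counts passed 6 of the 8 genes and left out Serpinb2 and Serpina3g. For all 8 genes the ccl5 and control libraries overlapped, while the groups did not overlap for 15.8% of the 12174 genes tested. In the quasi-likelihood test of edgeR 0 of the 6 inhibitors passed an adjusted p of 0.05, the share over all tested genes was 0%, and the smallest adjusted p was 0.365. DESeq2 called 0 of the genes on the list, where 1.49% of 12884 genes were called, and limma-voom, run with a quality weight per library, called 5 of the 6, where 66.5% of 12174 genes were called. At an unadjusted p under 0.05 there was 1 of the 6, Slpi, against 13.7% of all tested genes. Because the genes were chosen with these counts known, their fold changes are given as descriptions.

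**Figure D1:**
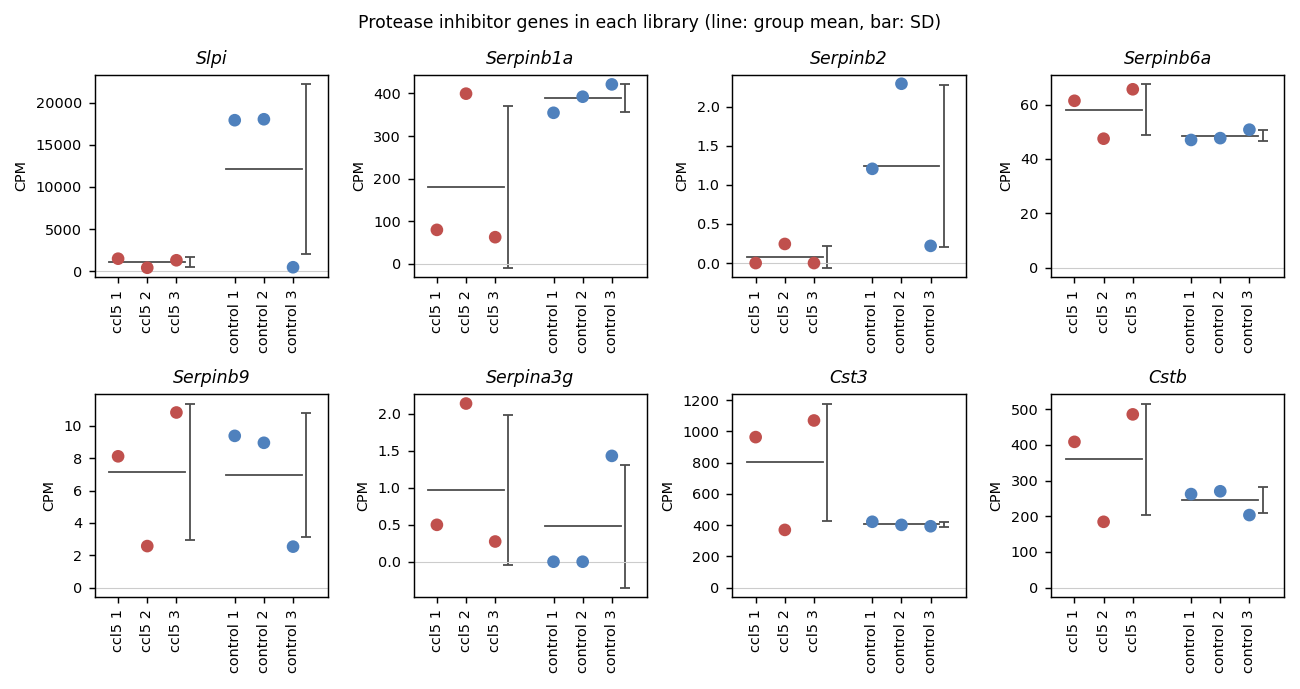
Level of each of the 8 inhibitor genes in CPM (vertical axes, linear, 1 scale per gene) in the 3 ccl5 libraries (red, left) and the 3 control libraries (blue, right). Each point is a library, each line a group mean and each bar an SD of 3 libraries. ccl5 replicate 2 and control replicate 3 lie close together for every gene except Serpina3g, and the groups overlap in every panel. Serpinb2 and Serpina3g have low counts.

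The promoter windows of 3 genes are shown because their transcripts were laid out differently across the same 6 libraries: Slpi was highest in control replicates 1 and 2, Cst3 in ccl5 replicates 1 and 3, and Serpinb6a was nearly level. Windows from RefSeq (GRCm38.p6) were found for 6 of the 8 genes. Each sequence below gives the 250 bases before an annotated start site, 5′ to 3′ on the strand of the gene, all on the minus strand. Capitals mark matches on either strand to 5 motifs: GAGGAA, the ETS core bound by PU.1; TTGCNNAA, bound by C/EBP factors; TGANTCA, bound by AP-1; GGGCGG, the GC box; and TATAAA, the TATA box. No match overlapped another in these windows.
Slpi, chr2:164356508-164356757: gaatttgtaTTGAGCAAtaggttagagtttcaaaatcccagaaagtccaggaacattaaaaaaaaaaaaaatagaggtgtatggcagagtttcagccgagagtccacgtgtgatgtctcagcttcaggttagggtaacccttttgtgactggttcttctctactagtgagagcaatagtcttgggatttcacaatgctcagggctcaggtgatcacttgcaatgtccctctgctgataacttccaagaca
Cst3, chr2:148875513-148875762: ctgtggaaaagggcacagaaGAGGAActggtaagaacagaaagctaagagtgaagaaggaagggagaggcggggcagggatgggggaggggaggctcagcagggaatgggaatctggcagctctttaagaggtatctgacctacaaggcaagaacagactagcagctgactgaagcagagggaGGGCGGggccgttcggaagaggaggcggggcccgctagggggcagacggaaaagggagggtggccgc
Serpinb6a, chr13:34002795-34003044: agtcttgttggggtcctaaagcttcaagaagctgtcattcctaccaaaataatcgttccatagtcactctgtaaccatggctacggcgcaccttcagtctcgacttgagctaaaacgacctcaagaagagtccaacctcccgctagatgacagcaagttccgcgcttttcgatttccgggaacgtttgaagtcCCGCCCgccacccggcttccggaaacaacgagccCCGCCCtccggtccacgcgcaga
The Slpi window held 1 match, TTGAGCAA, to the C/EBP motif, which was found in 9.6% of 32851 windows of the same length. Cst3 had 1 match to the PU.1 core and 1 to the GC box, found in 23.3% and 32.7% of windows. Serpinb6a had 2 GC boxes in the window shown. The windows shown held 2 CpG sites for Slpi, 8 for Cst3 and 20 for Serpinb6a, and the median over all windows was 6. Serpinb6a has another annotated start site, 66711 bases from the gene start in the count table. Its window (chr13:33936084-33936333) held 2 CpG sites and no match to the 5 motifs. The Cst3 window starts from a site 44 bases upstream of the gene start in the count table. These matches describe letters and not bound sites.

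Slpi (chromosome 2, 164354070 to 164356507, mm10, minus strand) had 1469, 392 and 1280 CPM in ccl5 replicates 1 to 3, against 17947, 18060 and 451 CPM in control replicates 1 to 3. Control replicates 1 and 2 stood far above every other library, and control replicate 3 lay below ccl5 replicates 1 and 3. In control replicates 1 and 2 Slpi ranked 2 among all 23337 genes by CPM and 1 by CPM per kilobase of exon. By CPM it ranked 55, 280 and 76 in ccl5 replicates 1 to 3 and 239 in control replicate 3. The group means were 1047 ± 575 CPM for the ccl5 libraries and 12152 ± 10134 CPM for the control ones (n = 3 each, SD), a log2 fold change of -3.54 (SE 1.31). When the fit held just the libraries labelled primary transplant (ccl5 replicates 2 and 3, control replicate 3), the direction turned to a log2 fold change of 0.87 (SE 1.03). A fit to the 4 libraries that had Y-linked reads (ccl5 replicate 2 and the 3 controls) gave -4.96 (SE 2.66). The range of log2 CPM across the 6 libraries was 5.52 for Slpi, wider than in 98.6% of tested genes, which had a median range of 1.02.

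Serpinb1a, a serpin that inhibits elastase, cathepsin G and proteinase 3 (chromosome 13, 32842092 to 32851185, minus strand), had 79.6, 400 and 62.4 CPM in ccl5 replicates 1 to 3, against 355, 392 and 421 CPM in control replicates 1 to 3. Only ccl5 replicates 1 and 3 were low, and ccl5 replicate 2 lay within the control range. The means were 181 ± 190 CPM for the ccl5 libraries and 389 ± 33.4 CPM for the control ones (n = 3 each, SD), a log2 fold change of -1.11 (SE 0.73). It was -0.87 (SE 1.20) in primary transplants only and 0.03 (SE 0.21) in libraries with Y-linked reads.

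Serpinb6a, an inhibitor of cathepsin G and related serine proteases (chromosome 13, 33917918 to 34002794, minus strand), was the steadiest of the tested inhibitors on the list. It had 61.4, 47.5 and 65.6 CPM in ccl5 replicates 1 to 3, against 47.0, 47.7 and 50.8 CPM in control replicates 1 to 3. Again ccl5 replicates 1 and 3 differed from the rest, here by lying slightly higher. Its log2 fold change was 0.26 (SE 0.17), 0.14 (SE 0.60) in primary transplants only and -0.03 (SE 0.17) in libraries with Y-linked reads. Of its 1888 exon bases, 52 also belonged to 1110046J04Rik on the other strand.

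Serpinb9, which protects cells against granzyme B (chromosome 13, 33004541 to 33017955, plus strand), had 8.12, 2.57 and 10.8 CPM in ccl5 replicates 1 to 3, against 9.38, 8.96 and 2.53 CPM in control replicates 1 to 3. The low libraries were ccl5 replicate 2 and control replicate 3, 1 in each group, and the group means were 7.17 ± 4.21 CPM for the ccl5 libraries and 6.96 ± 3.84 CPM for the control ones (n = 3 each, SD). The log2 fold change was 0.04 (SE 0.70), 1.37 (SE 1.33) in primary transplants only and -1.44 (SE 0.96) in libraries with Y-linked reads. Gzmb and Gzma, which encode granzymes, had 0 counts in every library.

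Serpinb2, a urokinase inhibitor of macrophages (chromosome 1, 107511423 to 107525600, plus strand), was close to absent. Reads numbered 0, 4 and 0 in ccl5 replicates 1 to 3, against 19, 43 and 4 in control replicates 1 to 3. A level of 3 counts, taken as the floor below which a value is not told apart from 0, corresponded to between 0.16 and 0.273 CPM per library and covers counting error only. Control replicates 1 and 2, at 1.20 and 2.29 CPM, were the only libraries well above the floor. Plau, the urokinase that Serpinb2 inhibits, had 83.5, 3.91 and 81.4 CPM in ccl5 replicates 1 to 3, against 77.9, 84.9 and 3.96 CPM in control replicates 1 to 3.

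Serpina3g, a mouse clade A serpin that inhibits lysosomal cysteine cathepsins released into the cell (chromosome 12, 104214544 to 104241934, plus strand), had 7, 35 and 3 counts in ccl5 replicates 1 to 3, against 0, 0 and 26 counts in control replicates 1 to 3. It was highest in ccl5 replicate 2 and control replicate 3, at 2.14 and 1.43 CPM. The gene shared 147 of its 2020 exon bases with Serpina3f on the same strand and belongs to a family of close copies, so its low counts are uncertain.

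Cst3 (chromosome 2, 148871732 to 148875468, minus strand) had 963, 369 and 1070 CPM in ccl5 replicates 1 to 3, against 421, 401 and 393 CPM in control replicates 1 to 3. The controls were nearly level, ccl5 replicates 1 and 3 were above them, and ccl5 replicate 2 lay below all controls. The means were 801 ± 378 CPM for the ccl5 libraries and 405 ± 14.7 CPM for the control ones (n = 3 each, SD), a log2 fold change of 0.98 (SE 0.41). It was 0.85 (SE 0.97) in primary transplants only and turned to -0.14 (SE 0.18) in libraries with Y-linked reads.

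Cstb (chromosome 10, 78425670 to 78427622, plus strand) followed the same order of libraries in the ccl5 group, with 408, 184 and 485 CPM in replicates 1 to 3, against 262, 270 and 203 CPM in control replicates 1 to 3. As for Cst3, ccl5 replicates 1 and 3 were above all controls and ccl5 replicate 2 was below them. The means were 359 ± 156 CPM for the ccl5 libraries and 245 ± 36.5 CPM for the control ones (n = 3 each, SD), a log2 fold change of 0.55 (SE 0.38). It was 0.70 (SE 0.87) in primary transplants only and turned to -0.41 (SE 0.26) in libraries with Y-linked reads.

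**Figure D2:**
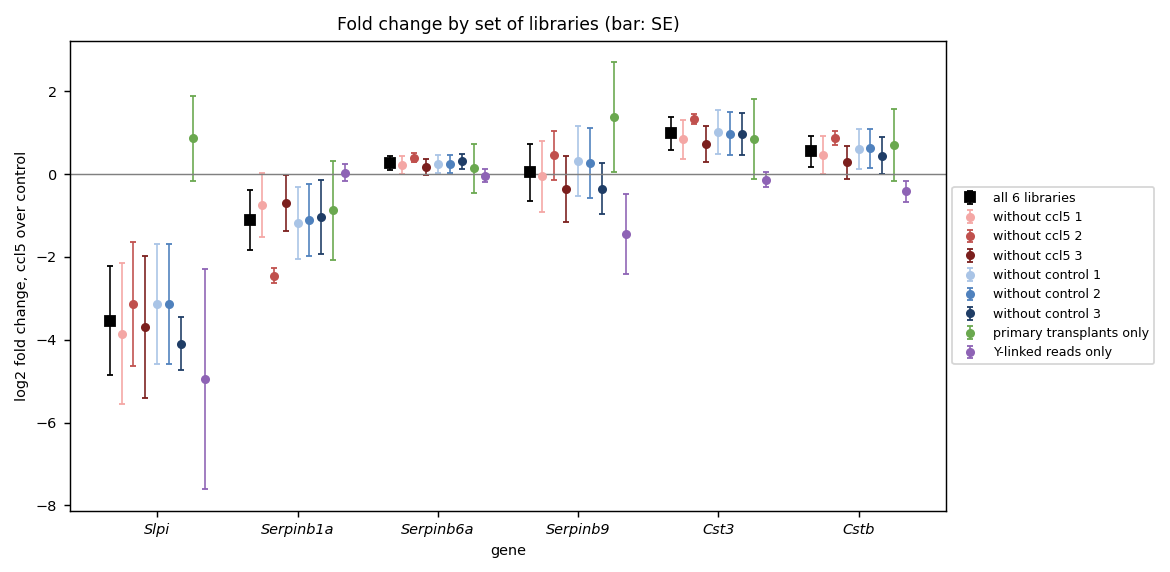
Log2 fold change of ccl5 over control (vertical axis) for the 6 tested inhibitor genes, fitted to all 6 libraries (black squares), without each library in turn, to primary transplants only and to libraries with Y-linked reads only. Bars are SE. The primary transplant fit for Slpi (0.87) lies on the other side of 0 from the fit to all libraries. So do the Y-linked fits for Serpinb1a (0.034), Serpinb6a (-0.033), Serpinb9 (-1.44), Cst3 (-0.14) and Cstb (-0.41). For Serpinb9 the fits without ccl5 1 (-0.05), ccl5 3 (-0.37) and control 3 (-0.35) do as well.

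Calls depended on which libraries were in the fit. Without ccl5 replicate 2, which leaves ccl5 replicates 1 and 3 against the controls, 3 of the 7 inhibitors then tested passed the threshold in edgeR's quasi-likelihood test, where 26.2% of 12581 genes did. These were Serpinb1a (log2 fold change -2.45, SE 0.18), Cst3 (1.33, SE 0.13) and Cstb (0.87, SE 0.18). Without control replicate 3 none of the 7 then tested passed, where 1.88% of 12579 genes did. When ccl5 replicate 2 and control replicate 3 were both left out, 6 of 7 tested inhibitors passed, where 70.7% of 12440 genes did. Those were Slpi, Serpinb1a, Serpinb2, Serpinb6a, Cst3 and Cstb. That fit sets ccl5 replicates 1 and 3, without Y-linked reads, against control replicates 1 and 2, with them, so treatment and source cannot be told apart in it.

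Between ccl5 replicate 2 and control replicate 3, the treated and control libraries closest to each other, the 6 tested inhibitors differed little. Both are labelled primary transplants and both have Y-linked reads, and with 1 library on each side there is no test. The log2 ratio of ccl5 replicate 2 over control replicate 3 was -0.20 for Slpi, -0.08 for Serpinb1a, -0.10 for Serpinb6a and 0.02 for Serpinb9. It was -0.09 for Cst3 and -0.14 for Cstb. Over 12060 tested genes with more than 3 counts in both libraries the middle 90% of ratios lay between -0.34 and 0.32, so these 6 genes fell within the usual spread between this pair of libraries. Serpina3g, with 35 counts in ccl5 replicate 2 and 26 in control replicate 3, had a ratio of 0.58, outside that range, and Serpinb2, with 4 counts in each, had 0.15.

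Per kilobase of exon, the order of mean levels over the 6 libraries was Slpi, Cst3, Cstb, Serpinb1a, Serpinb6a, Serpinb9, Serpina3g and Serpinb2, from 7534 to 0.323 CPM per kilobase. Cst3 exceeded Cstb, Cstb exceeded Serpinb1a and Serpinb6a exceeded Serpinb9 in all 6 libraries. Slpi and Cst3 were not separated, since Cst3 was higher in ccl5 replicate 2 (497 against 448 CPM per kilobase for Slpi) and in control replicate 3 (529 against 515). Neither were Serpinb1a and Serpinb6a, which had 32.6 and 34.8 CPM per kilobase in ccl5 replicate 3. Serpinb9 and Serpina3g were not separated either, with 0.755 CPM per kilobase for Serpinb9 and 1.06 for Serpina3g in ccl5 replicate 2. Serpina3g and Serpinb2, both with low counts, changed order between libraries. In ccl5 replicate 2 Serpina3g had 1.06 CPM per kilobase and Serpinb2 0.119, while in control replicate 2 Serpinb2 had 1.12 and Serpina3g 0.

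The other protease inhibitors on the lists, picked by family, comprised 112 genes in the file. Of these, 72 had at most 3 counts in every library and 28 passed the filter. In edgeR's quasi-likelihood fit over all genes 0 of the 28 passed in either direction, where the share over all tested genes was 0%, and 11 had an unadjusted p under 0.05, where 13.7% of all tested genes did. DESeq2 called 4 of 31 such genes, where 1.49% of all genes it tested were called. The 19 of 28 called by limma-voom stood beside a share of 66.5% over all genes and so were near the background. By sign alone 23 had a negative and 5 a positive fold change, where the median log2 fold change over all tested genes was -0.0138. All 8 other cystatins and stefins that passed the filter, mostly stefin A genes of chromosome 16, were among the 23. Of these 8, 6 were among the 11 with an unadjusted p under 0.05. Groups did not overlap in 8 of the 28, all lower with CCL5, where 7.49% of all tested genes were separated in that direction. Some gaps were narrow, in genes named here after their values were seen. Between ccl5 replicate 2 and control replicate 3, Stfa2l1 had 1.77 and 1.82 CPM and Tfpi 48.7 and 50.1 CPM. For Spink2 the highest ccl5 value was 3.30 CPM and the lowest control value 3.36 CPM. Stfa2, also among the 8, and Stfa2l1 are near-identical stefin A copies, so these are not separate observations.

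Genes that neighbour each other in the clade B serpin cluster of chromosome 13 had different layouts. Serpinb6b, which lies between Serpinb1a and Serpinb9 (32965513 to 32979037), had 3.13, 0.183 and 3.55 CPM in ccl5 replicates 1 to 3, against 11.03, 12.5 and 0.11 CPM in control replicates 1 to 3. Like Serpinb9, it was low in ccl5 replicate 2 and control replicate 3, and unlike Serpinb9 it was higher in control replicates 1 and 2 than in ccl5 replicates 1 and 3. Serpinb1c of the same cluster had 26, 3 and 26 counts in ccl5 replicates 1 to 3, against 11, 21 and 1 in control replicates 1 to 3. Reads of such close copies can be assigned to each other. In the chromosome 1 cluster that holds Serpinb2, Serpinb8 had 17.5, 2.69 and 16.4 CPM in ccl5 replicates 1 to 3, against 17.4, 17.5 and 3.41 CPM in control replicates 1 to 3. Of all 22 other clade B serpins in the file, 4 passed the filter and 16 had at most 3 counts in every library.

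Among serpins of other clades, Serpinf1, which encodes a serpin without inhibitory activity, had 2.14, 19.97 and 0.819 CPM in ccl5 replicates 1 to 3, against 2.41, 2.19 and 17.7 CPM in control replicates 1 to 3. Its high libraries were ccl5 replicate 2 and control replicate 3. Serpina11 was laid out likewise, with 0, 110 and 0 counts in ccl5 replicates 1 to 3, against 0, 3 and 97 counts in control replicates 1 to 3 (it was named after its values were seen). Serpine2, protease nexin 1, had 1.71, 1.53 and 1.46 CPM in ccl5 replicates 1 to 3, against 5.20, 6.34 and 1.76 CPM in control replicates 1 to 3, so the groups did not overlap but control replicate 3 lay beside the ccl5 libraries. None of the 23 other clade A serpins in the file passed the filter.

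Other cystatins had layouts unlike those of Cst3 and Cstb. All 8 that passed the filter had a negative fold change. Stfa3, a stefin A gene of chromosome 16, had 0.57, 1.77 and 1.09 CPM in ccl5 replicates 1 to 3, against 623, 629 and 1.32 CPM in control replicates 1 to 3. Its relatives Gm5483 and BC100530 were also highest in control replicates 1 and 2, at 950 and 933 CPM for Gm5483 and 775 and 714 CPM for BC100530, and at most 57.5 CPM elsewhere for both. The stefin A genes are near-identical copies whose single values are uncertain. Cst7, which encodes the leukocyte cystatin F and was named after its values were seen, had 22.8, 27.8 and 20.3 CPM in ccl5 replicates 1 to 3, against 108, 113 and 25.3 CPM in control replicates 1 to 3. It shared with Slpi and the stefin A genes the high level in control replicates 1 and 2, and in control replicate 3 it lay within the ccl5 range.

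Of the whey acidic protein family beyond Slpi, 2 of 18 genes in the file passed the filter. 1100001G20Rik, an older symbol of Wfdc21, had 3.77, 16.9 and 5.46 CPM in ccl5 replicates 1 to 3, against 29.5, 28.5 and 18.4 CPM in control replicates 1 to 3. Expi, an older symbol of Wfdc18, had 5.20, 0.916 and 4.19 CPM in ccl5 replicates 1 to 3, against 3.42, 3.20 and 1.27 CPM in control replicates 1 to 3. In 1100001G20Rik the groups did not overlap, and in Expi they did.

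Among inhibitors of other families, Cast, the calpain inhibitor calpastatin, had 114 ± 11.5 CPM for the ccl5 libraries and 125 ± 16.7 CPM for the control ones (n = 3 each, SD). Timp2, an inhibitor of matrix metalloproteinases, had 190, 57.0 and 162 CPM in ccl5 replicates 1 to 3, against 68.1, 60.9 and 51.3 CPM in control replicates 1 to 3, with ccl5 replicates 1 and 3 highest, as for Cst3. Spint2, a Kunitz-type inhibitor of serine proteases, had 25.3, 69.3 and 17.9 CPM in ccl5 replicates 1 to 3, against 62.7, 58.0 and 67.9 CPM in control replicates 1 to 3. Its low libraries were those of Serpinb1a.

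**Figure D3:**
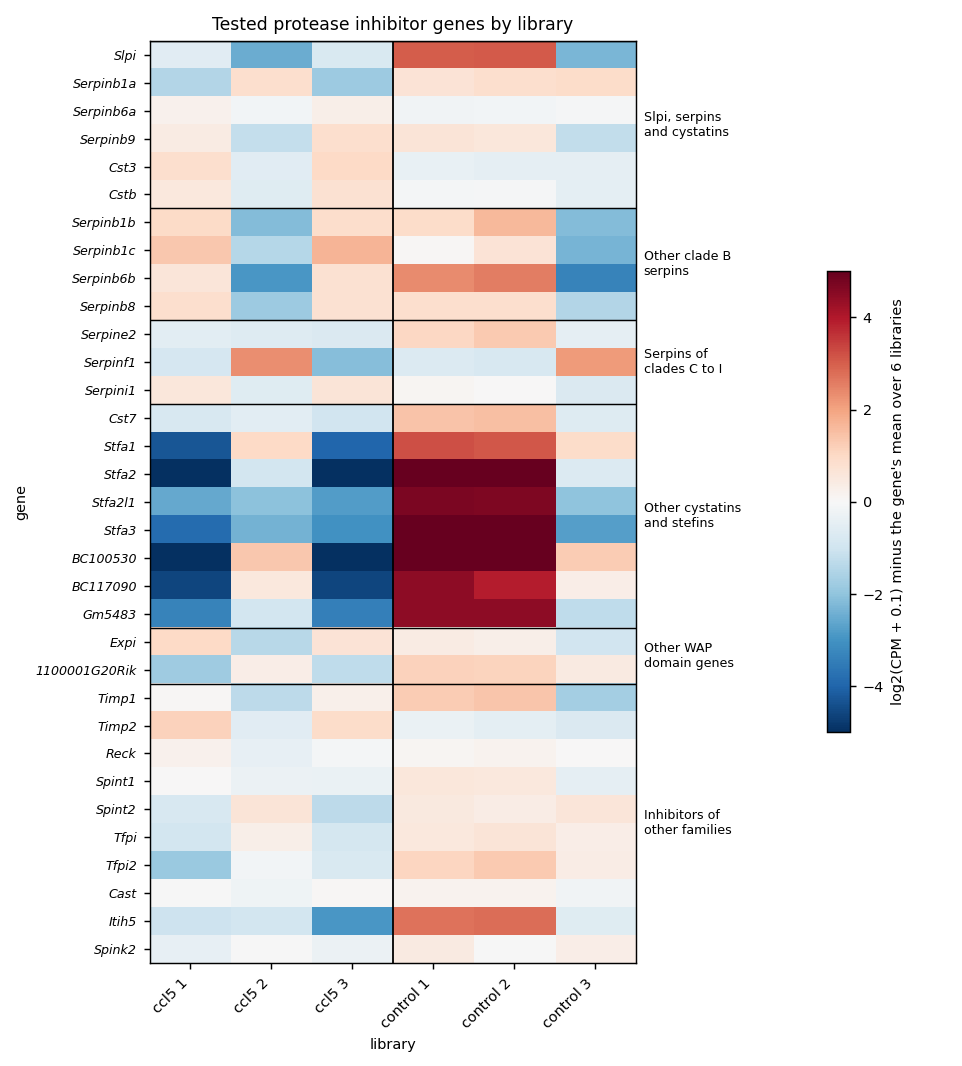
Level of 33 of the 34 tested inhibitor genes (rows, grouped by list) in the 6 libraries (columns, ccl5 left of control), as log2(CPM + 0.1) minus the gene's own mean over the 6 libraries. The colour scale ends at 5 log2 units in each direction. Columns resemble each other in the pairs ccl5 1 and 3, ccl5 2 and control 3, and control 1 and 2.

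The proteases that these inhibitors bind varied between the same libraries. Elane, neutrophil elastase, had 24.8, 4548 and 12.8 CPM in ccl5 replicates 1 to 3, against 220, 226 and 4360 CPM in control replicates 1 to 3. It was highest in ccl5 replicate 2 and control replicate 3, where Slpi was lowest. Per kilobase of exon, the level of Slpi divided by that of Elane was 62.2, 0.0906 and 105 in ccl5 replicates 1 to 3, against 85.8, 83.8 and 0.109 in control replicates 1 to 3. Slpi RNA was thus above Elane RNA in 4 libraries and below it in ccl5 replicate 2 and control replicate 3. Per kilobase of exon, Slpi over Ctsg, which encodes cathepsin G, was 9.76, 0.226 and 12.7 in ccl5 replicates 1 to 3, against 11.8, 11.9 and 0.241 in control replicates 1 to 3. Such ratios of RNA say nothing of protein or of inhibition. The 5 primary granule markers, which include Elane and Ctsg, summed to 338, 7878 and 237 CPM in ccl5 replicates 1 to 3, against 2349, 2382 and 7762 CPM in control replicates 1 to 3, and the 11 neutrophil markers in the file summed to 519, 8272 and 591 CPM against 737, 770 and 8115 CPM. The neutrophil sums came from different genes in different libraries. Mmp8 had 465 and 533 CPM in ccl5 replicates 1 and 3, against 44.1 and 35.6 CPM in control replicates 1 and 2. S100a8 had 6.13 and 6.92 CPM in ccl5 replicates 1 and 3, against 450 and 491 CPM in control replicates 1 and 2. The part of these marker genes in the levels of Slpi and Serpinb1a was not tested, and in such bulk samples fewer cells of a type and less RNA per cell cannot be told apart.

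The cysteine proteases cathepsin B and cathepsin S were highest where Cst3 and Cstb were highest. Ctsb, cathepsin B, had 19247, 1938 and 19024 CPM in ccl5 replicates 1 to 3, against 4097, 4061 and 1914 CPM in control replicates 1 to 3. Ctss, cathepsin S, had 4024, 499 and 4800 CPM in ccl5 replicates 1 to 3, against 296, 282 and 523 CPM in control replicates 1 to 3. Both proteases varied more than their inhibitors did. Per kilobase of exon, Cst3 over Ctsb was 0.32, 1.22 and 0.36 in ccl5 replicates 1 to 3, against 0.657, 0.632 and 1.31 in control replicates 1 to 3. The ratio was lowest in ccl5 replicates 1 and 3 although Cst3 itself was highest there. Monocyte and macrophage markers summed to 19014, 5214 and 21826 CPM in ccl5 replicates 1 to 3, against 14397, 14161 and 5660 CPM in control replicates 1 to 3, with none at 0 in all libraries. Lyz2 made up most of each sum, with 14736 CPM in ccl5 replicate 1 and 10986 CPM in control replicate 1. By sign, 13 of these 16 markers had a positive and 3 a negative fold change. Cd14, of the latter, had 31.3 and 29.9 CPM in ccl5 replicates 1 and 3, against 195 and 188 CPM in control replicates 1 and 2. The part of these markers in the levels of Cst3 and Cstb was not tested. Of the 17 proteases on the list 13 passed the filter, and Lgmn, which encodes the asparaginyl protease legumain, was the only one of them whose groups did not overlap (921, 94.6 and 887 CPM in ccl5 replicates 1 to 3, against 70.1, 62.1 and 88.5 CPM in control replicates 1 to 3). It was separated upward, as were 8.27% of all tested genes.

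**Figure D4:**
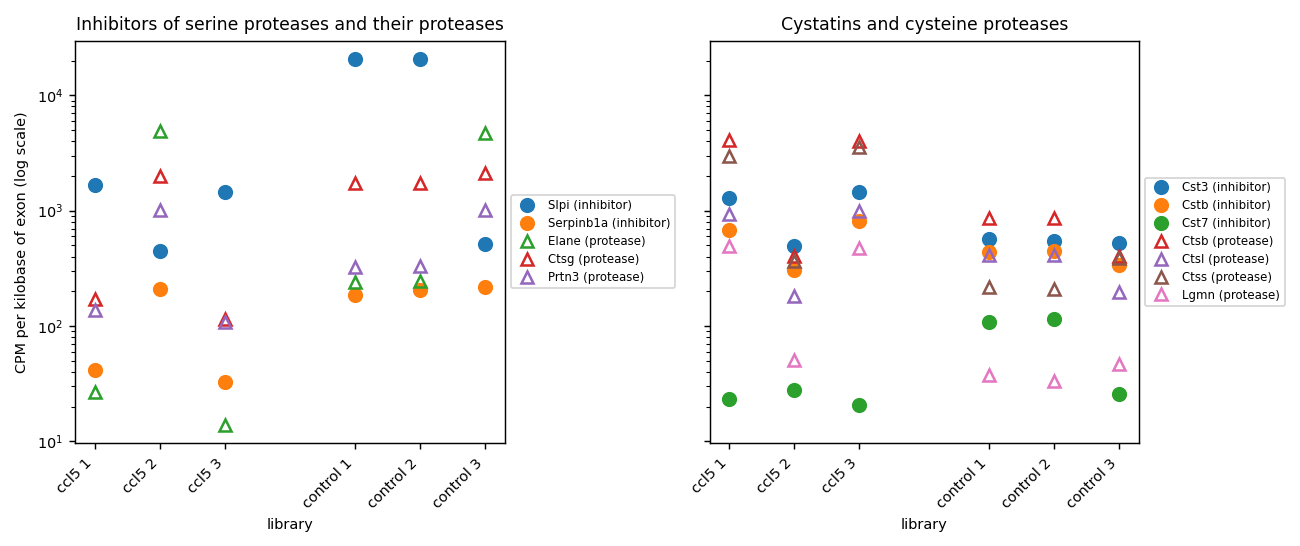
Levels in CPM per kilobase of exon (vertical axis, log scale) of inhibitors (filled circles) and proteases (open triangles) in the 3 ccl5 and the 3 control libraries. The left panel shows inhibitors of serine proteases and the right panel cystatins with cysteine proteases. Slpi lies below Elane in ccl5 2 and control 3 and above it in the other 4 libraries.

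Genes laid out most like each inhibitor were ranked by the root mean square difference of log2 CPM, centred on each gene's mean, over the 6 libraries and 10260 other genes. For Slpi they were Egr1, an immediate early transcription factor, Rbpms2 and Gipr, at differences of 0.14, 0.24 and 0.28 log2 units. Rbpms2 had 0.122 CPM in ccl5 replicate 2 and 0.055 CPM in control replicate 3, both below the floor of 3 counts. Egr1 had 1.71, 0.489 and 1.37 CPM in ccl5 replicates 1 to 3, against 21.9, 24.6 and 0.495 CPM in control replicates 1 to 3. For Serpinb1a they were Nfe2, a transcription factor of blood cells, Sytl1 and Tspan32, at 0.06, 0.07 and 0.10. For Serpinb6a they were Snap23, Ap3s2 and Mpv17, at 0.03 to 0.04. Serpinb9 was closest to Iqcb1, B2m, the light chain of MHC class I, and Plek, at 0.10 to 0.11. Cst3 was closest to Rab40c, Mmaa and Ifngr2, a subunit of the interferon gamma receptor, at 0.03 to 0.05. Cstb was closest to Rnf13, Psmb6, a proteasome subunit, and Eif2c3, at 0.04 to 0.05. With 3 pairs of closely alike libraries many genes share each layout, so these are descriptions of 6 points.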

How the data were processed

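Polyadenylated RNA was sequenced as single-end reads, per the labels' protocols, and the submitters' processing notes name Trimmomatic, TopHat, Bowtie, featureCounts and DESeq2 with the mm10 build. The authors deposited whole-number read counts per gene, made with featureCounts 1.5.1 per the file headers, with gene positions and exon lengths. The command in the file header sets neither strand nor counting for more than 1 gene, so by that tool's defaults reads in bases that 2 genes share, on either strand, are left uncounted.

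Libraries were grouped by the treatment label, 3 per group, and ccl5 replicate numbers follow accession order only. Counts were fitted with edgeR 4.0.16 in R 4.3.3 (quasi-likelihood F test, TMM scaling, filterByExpr with a minimum count of 10, Benjamini-Hochberg adjustment over 12174 tested genes, threshold 0.05). Each SE is the absolute log2 fold change over the root of F. Values in CPM used TMM-scaled library sizes, and log2 CPM a prior count of 2. The fit was also run on simulated counts of libraries drawn independently within each group. These lacked the close pairs of libraries seen here, so they cannot show how the fit behaves with such pairs.

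The 8 genes and all lists were chosen with earlier results of these data known. Beyond the 8, text names from each inhibitor or protease list the 3 tested genes of highest mean CPM, the 3 genes closest in layout to each tested inhibitor, and neighbours by position. Exceptions are proteases bound by a described inhibitor, and a few genes picked by their values, which the text marks. Values of 1 such gene are not given.

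Alternatives were DESeq2 size factors, DESeq2 1.42.0's Wald test, limma-voom (limma 3.58.1) with sample quality weights, other filters, a threshold of 0.1, leaving out each library and primary transplants only. After seeing the data, fits without both ccl5 replicate 2 and control replicate 3, and with Y-linked reads only, were added.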

Additional observations from a re-analysis of the deposited data

How the results depend on the processing

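The edgeR count of 0 called genes stayed at 0 with DESeq2 size factors, with no filter, with CPM over 1 in at least 3 libraries, at a threshold of 0.1, in primary transplants only and in libraries with Y-linked reads only. Leaving out 1 library gave 0 to 3299 called genes over all genes, 0 to 3 of the inhibitors on the list and 0 to 7 of the other inhibitors. Without ccl5 replicate 2, 3299 genes (26.2%) were called, with 3 of 7 tested inhibitors on the list and 7 of 28 others. Without control replicate 3 it was 237 genes (1.88%), 0 of 7 and 3 of 29. DESeq2's Wald test called 192 genes (1.49%), 0 of 8 and 4 of 31 others. For limma-voom it was 8097 genes (66.5%), 5 of 6 and 19 of 28 others. The fit without both ccl5 replicate 2 and control replicate 3 called 8797 genes (70.7%), 6 of 7 and 22 of 28 others. The cause of the difference between tools was not tested. Leaving out 1 library moved the log2 fold change between -4.09 and -3.14 for Slpi, -2.45 and -0.69 for Serpinb1a, 0.18 and 0.39 for Serpinb6a, -0.37 and 0.45 for Serpinb9, 0.73 and 1.33 for Cst3, and 0.29 and 0.87 for Cstb. The direction turned for Slpi in primary transplants only (0.87). In libraries with Y-linked reads only it turned for Serpinb1a (0.034), Serpinb6a (-0.033), Serpinb9 (-1.44), Cst3 (-0.14) and Cstb (-0.41), and with limma-voom for Serpinb9 (-0.017). For Serpinb9 it also turned without ccl5 replicate 1 (-0.05), ccl5 replicate 3 (-0.37) or control replicate 3 (-0.35). Fits with 1 library in a group assume that it varies like the others. No paired analysis was possible because the ccl5 replicate numbers come from accession order and pair no samples. Depth limits Serpinb2 and Serpina3g, which had at most 43 counts in any library.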
